A study of Homo sapiens with 6 samples.

Results

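Translesion synthesis and fork bypass were followed through 10 genes in PANC1, an established line from a human pancreatic carcinoma, after treatment with gemcitabine, a nucleoside analogue that is built into DNA and stops its synthesis. The genes are POLH, POLI, POLK and REV1 of the Y family of DNA polymerases, REV3L and MAD2L2 of polymerase zeta, the ubiquitin ligases RAD18, SHPRH and HLTF, and the primase-polymerase PRIMPOL. They were chosen by name, and all 10 were matched by Ensembl identifier among the 20461 protein-coding genes of the expression table. RNA-seq was done on 2 biological replicates given vehicle (0.1% DMSO) and 2 given 50 nM gemcitabine, each for 48 h. DNaseI-seq was done on 1 replicate with vehicle (DMSO) and 1 with 50 nM gemcitabine, and no other line was used. The RNA libraries hold 13194533 to 15766237 fragments on genes, and the 10 genes have 183 to 2953 fragments in a library. The replicates of a condition varied beyond counting noise, which alone gives a chi-square of about 1 per gene. Chi-square averaged 2.17 over genes for the vehicle pair and 5.16 for the gemcitabine pair. Over the 10 genes it averaged 2.03 for the vehicle pair and 8.1 for the gemcitabine pair. Of the markers of PANC1, KRT7, KRT8, KRT18 and VIM were at 336 FPKM or more in each library. KRT19 was at 3.22 and 3.05 FPKM with vehicle and at 5.83 and 6.91 after gemcitabine, and its part in the results was not tested. EPCAM, at 2.09 to 4.29 FPKM, and CDH1, at 0.184 to 0.770 FPKM, were low. FPKM counts fragments relative to transcript length in kilobases and to library depth. Among markers of other cell types, PRSS1 and INS were listed at 0, PTPRC was at 0.313 FPKM or less, and DCN was at 3.02 to 6.30 FPKM.

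When a replication fork meets a lesion or a block, RAD18, acting with the conjugating enzymes UBE2A or UBE2B, attaches ubiquitin to the sliding clamp PCNA. The modified clamp recruits the Y-family polymerases, which have open active sites and no proofreading, so that they can copy damaged templates at the cost of errors. REV1 also serves as a scaffold for the other polymerases, and polymerase zeta, with REV3L as its catalytic subunit and MAD2L2 as the subunit that binds REV1, extends the ends they leave. SHPRH and HLTF can lengthen the ubiquitin on PCNA into a chain, which directs the fork to a path that avoids errors, and PRIMPOL restarts synthesis beyond the block.

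Upstream sequences of 4 of these genes are given, out of 7 with a DNaseI peak at the start, as examples of a peak under both conditions, after gemcitabine alone and with vehicle alone. Each runs 5′ to 3′ on the strand of the gene, from 250 bases before to 50 bases after the canonical transcription start, and was read from the GRCh37 genome. POLH lies on the + strand (chr6:43543672-43543971) and had a peak under both conditions. REV1 (chr2:100106430-100106729) and REV3L (chr6:111804372-111804671), both on the - strand, had one after gemcitabine, and RAD18, on the - strand as well (chr3:9005107-9005406), had one with vehicle. Capitals mark matches to the motifs searched for, which were the GC box GGGCGG, the CCAAT box, the TATA box TATAAA, the ETS core CCGGAAG, the NRF1 core, the CRE TGACGTCA and the E2F cores TTTCCCGC, TTTGGCGC and TTTCGCGC, each on both strands. In POLH, matches to the GC box overlap and appear as a longer run.
POLH: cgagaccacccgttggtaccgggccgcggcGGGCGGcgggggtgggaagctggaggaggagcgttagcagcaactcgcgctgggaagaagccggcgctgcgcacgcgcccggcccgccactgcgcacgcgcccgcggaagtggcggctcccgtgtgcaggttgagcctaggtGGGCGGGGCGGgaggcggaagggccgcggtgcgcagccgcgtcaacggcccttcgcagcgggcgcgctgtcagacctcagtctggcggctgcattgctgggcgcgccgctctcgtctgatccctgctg
REV1: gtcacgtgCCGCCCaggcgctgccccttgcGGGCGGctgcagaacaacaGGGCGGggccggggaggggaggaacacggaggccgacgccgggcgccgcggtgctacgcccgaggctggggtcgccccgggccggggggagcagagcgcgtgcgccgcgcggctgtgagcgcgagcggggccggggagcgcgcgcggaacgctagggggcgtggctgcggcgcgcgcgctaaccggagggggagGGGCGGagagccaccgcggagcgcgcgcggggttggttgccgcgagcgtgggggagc
REV3L: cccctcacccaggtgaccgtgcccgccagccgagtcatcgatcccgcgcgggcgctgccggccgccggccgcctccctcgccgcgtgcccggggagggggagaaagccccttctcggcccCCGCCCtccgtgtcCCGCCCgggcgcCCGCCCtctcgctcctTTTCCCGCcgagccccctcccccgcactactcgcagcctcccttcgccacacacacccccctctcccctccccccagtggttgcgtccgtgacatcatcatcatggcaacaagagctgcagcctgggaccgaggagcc
RAD18: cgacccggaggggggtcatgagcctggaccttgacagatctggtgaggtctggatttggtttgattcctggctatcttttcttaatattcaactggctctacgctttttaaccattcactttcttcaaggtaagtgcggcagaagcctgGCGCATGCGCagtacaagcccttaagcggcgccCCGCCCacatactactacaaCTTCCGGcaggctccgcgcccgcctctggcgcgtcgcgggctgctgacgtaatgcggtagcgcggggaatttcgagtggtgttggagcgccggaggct
The GC box was in the windows of 9 of the 10 genes, with POLI the exception, and in 62.9% of the windows of 18553 genes. The GC content was above the median window of 64.0% in 7 of the 10, from 64.7% in HLTF to 80.7% in REV1, and below it in POLI (60.0%), SHPRH (59.7%) and RAD18 (57.7%). RAD18 was alone among the 10 in holding the exact spelling of the NRF1 core searched for, the longest run of capitals in its window. That spelling is in 1.74% of all windows. The POLH window holds it with c in place of T, a form that was not searched for. An E2F core, in each case TTTCCCGC (2.24% of all windows), was in HLTF, POLI and REV3L, and the ETS core (14.3%) in POLI and RAD18. A CCAAT box (36.0% of all windows) was in MAD2L2 and HLTF. No window of the 10 held TATAAA or TGACGTCA, which 9.19% and 2.77% of all windows hold.

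In vehicle-treated cells the levels of the 10 genes, compared per length of transcript, spanned from MAD2L2 at 69.6 ± 2.54 FPKM (SD, n = 2) to SHPRH at 4.56 ± 0.324 FPKM. HLTF, a DNA translocase as well as a ubiquitin ligase, came next to MAD2L2 at 39.6 ± 0.161 FPKM, followed by REV1 at 18.7 ± 0.763 and RAD18 at 16.6 ± 0.463 FPKM. REV3L, POLH and POLK, at 11.03 ± 4.601, 10.5 ± 1.39 and 10.1 ± 0.761 FPKM, followed, and the libraries of REV3L overlapped those of POLH, as those of POLH did those of POLK. PRIMPOL at 8.35 ± 1.39 and POLI at 6.97 ± 0.402 FPKM stood above SHPRH. MAD2L2 was thus above 85.5% of the genes tested and SHPRH above 33.9%.

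**Figure D1:**
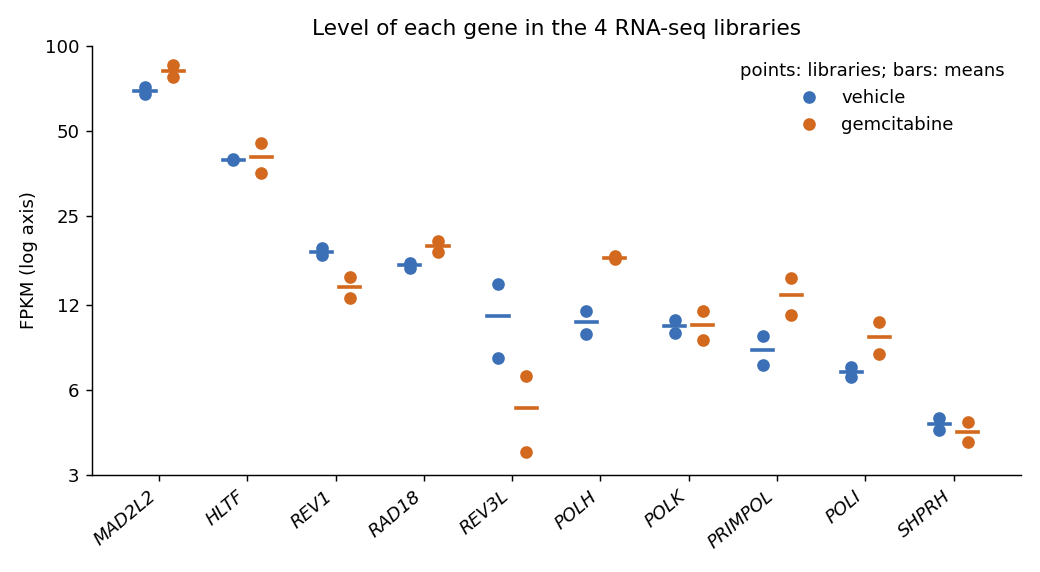
FPKM of each gene on a log axis in the 2 vehicle (blue) and 2 gemcitabine (orange) libraries, with genes ordered by their mean with vehicle. Points are libraries and bars are means. POLH overlaps REV3L with vehicle and lies above REV3L and REV1 after gemcitabine, at 17.5 and 18.0 FPKM. It is below RAD18 under both conditions, and REV3L has the widest spread between libraries of a condition.

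After gemcitabine, POLH and PRIMPOL rose and REV1, REV3L and SHPRH fell, while POLI, POLK, MAD2L2, RAD18 and HLTF did not pass the test. Thus 5 of the 10 genes passed at an adjusted p under 0.05, 2 upward and 3 downward, where 38.5% of all 14854 genes tested passed, 18.5% upward and 20.0% downward. The share among the 10 is near that background. With library totals in place of TMM scaling the split was 4 upward and 2 downward among the 10, and 4074 upward and 1977 downward among all genes. Their median log2 fold change was -0.07, with a range from -0.38 to 0.64, beside a median of 0.0068 over all genes tested. The test was edgeR's quasi-likelihood test on fragment counts, with Benjamini-Hochberg adjustment over all genes tested. With the further criteria of the study (fold change over 1.5, mean of at least 0.1 FPKM in a condition, difference of at least 1 FPKM), POLH alone of the 10 was called, upward, where 10.1% of all genes were, 5.69% upward and 4.43% downward. These are not the study's own calls, since edgeR's adjusted p stands in for that of the study's test. With limma on log2(FPKM + 1) or log2(FPKM + 0.1) none of the 10 passed. With genes kept at a mean of at least 0.1 FPKM, limma on log2(FPKM + 1) called POLH alone (adjusted p = 0.0337). In bulk RNA, a change in the share of cells that express a gene, for instance through cell-cycle phase, and a change in RNA per cell cannot be told apart.

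**Figure D2:**
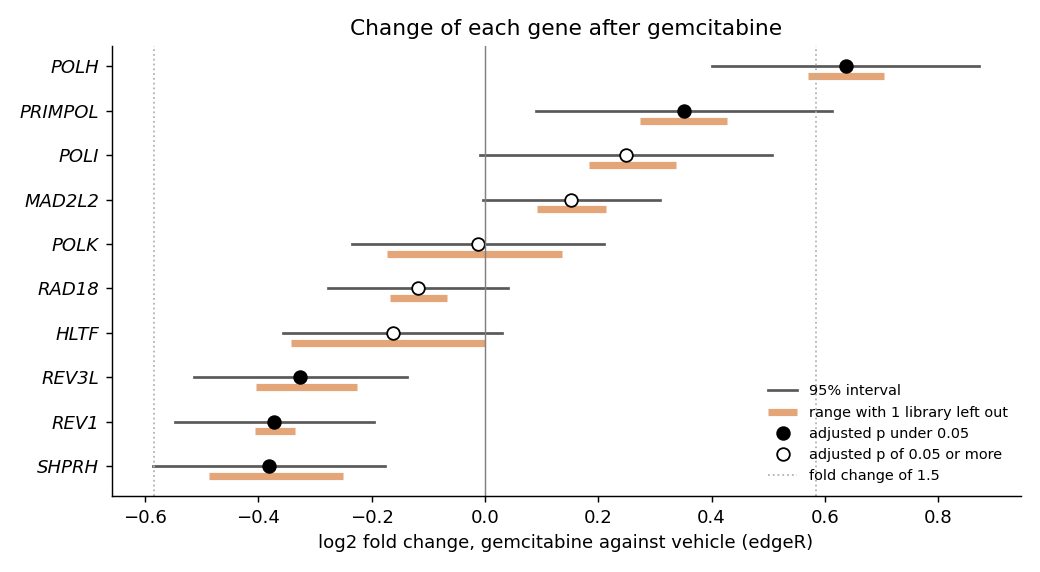
Log2 fold change of each gene, gemcitabine against vehicle, from edgeR, with its 95% interval (grey line) and the range obtained when 1 library was left out at a time (orange band). Filled points passed an adjusted p under 0.05, dotted lines mark a fold change of 1.5, and POLH at 0.64 is the point farthest from 0.

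POLH encodes polymerase eta, which copies accurately past ultraviolet-induced thymine dimers and is deficient in the variant form of xeroderma pigmentosum. It lies on chromosome 6 of hg19 from 43543922 to 43588260. Its scaled CPM, fragments relative to the library total (CPM) after TMM scaling between libraries, was 14.2 and 15.4 in the vehicle libraries and 24.1 and 22.03 in the gemcitabine libraries. Both gemcitabine values were above both vehicle values. The log2 fold change was 0.64 (SE, the standard error, 0.11, with a 95% interval from 0.40 to 0.87 and an edgeR adjusted p of 0.000393), a rise of 55.5%. With 1 library left out, its condition is left with a lone library, which is assumed to vary like the pair of the other condition. The gemcitabine pair was the more variable, so these p-values depend on which pair remains. For POLH the adjusted p was 0.0327 and 0.0203 without a vehicle library and 5.29e-05 and 2.19e-07 without a gemcitabine library, although without gemcitabine library 1 its log2 fold change was 0.57, below the fold criterion of 0.585. On the FPKM scale it went from 11.5 and 9.53 to 17.5 and 18.0.

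REV1, a deoxycytidyl transferase that binds the other Y-family polymerases, fell. It lies on chromosome 2 from 100016938 to 100106497. Its scaled CPM was 44.7 and 44.4 with vehicle and 35.2 and 33.6 after gemcitabine, with no overlap between the conditions. The log2 fold change was -0.37 (SE 0.082, edgeR adjusted p = 0.00242). The size hardly moved with 1 library left out, from -0.41 to -0.34, but the adjusted p was 0.0618 without vehicle library 1 and 0.0606 without vehicle library 2.

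POLI and POLK, the polymerases iota and kappa, showed no change that passed the test. For POLI (chromosome 18, 51795887 to 51847636), scaled CPM was 13.4 and 14.8 with vehicle and 17.5 and 16.01 after gemcitabine, a log2 fold change of 0.25 with a 95% interval from -0.01 to 0.51. The groups did not overlap, yet the adjusted p was 0.117 by edgeR. POLK (chromosome 5, 74807670 to 74905816), known for extending mismatched ends and for copying past bulky adducts, was at 31.0 and 31.1 with vehicle and at 34.0 and 27.5 after gemcitabine. The gemcitabine libraries thus lay on either side of the vehicle libraries, and the interval of the log2 fold change ran from -0.23 to 0.21.

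Set against each other within a library, POLH and REV1 held shares of the Y-family transcripts that did not overlap between the conditions, while the shares of POLI and POLK overlapped. The scaled CPM of POLH was 0.319 and 0.348 times that of REV1 in the vehicle libraries and 0.685 and 0.656 times in the gemcitabine libraries. On the FPKM scale REV1 held 39.5% and 41.1% of the summed level of the 4 polymerases with vehicle, and 29.0% and 25.5% after gemcitabine. POLH held 25.1% and 20.4% with vehicle and 33.5% and 35.8% after gemcitabine. It thus passed REV1 on this scale, but not by counts, which are not divided by transcript length. The length implied by FPKM and fragment counts was 1.188 to 1.563 kb for POLH and 2.235 to 2.69 kb for REV1. All annotated exons together cover 8.368 kb in POLH and 7.769 kb in REV1. The order of POLH and REV1 on the FPKM scale therefore depends on the lengths used, which were not tested. The summed level was 45.9 and 46.7 FPKM with vehicle and 52.2 and 50.2 FPKM after gemcitabine. No test was made on these ratios and shares. They restate the changes of POLH and REV1 given above, and are not a further result.

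**Figure D3:**
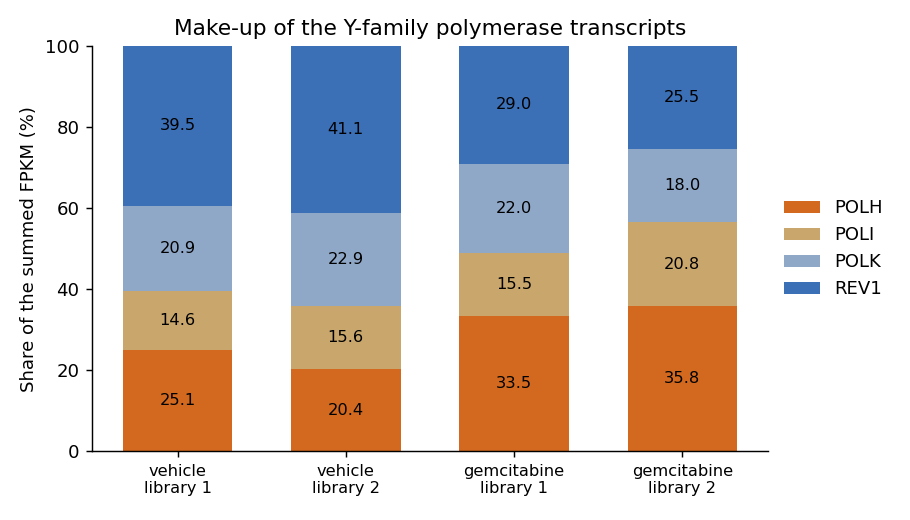
Share (%) of POLH, POLI, POLK and REV1 in their summed FPKM in each of the 4 libraries. REV1 is the largest part of both vehicle bars (39.5% and 41.1%) and POLH the largest part of both gemcitabine bars (33.5% and 35.8%).

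Of the polymerase zeta genes, the catalytic subunit REV3L fell and MAD2L2 did not pass the test. REV3L spans 185 kb of chromosome 6, from 111620231 to 111804918. Its scaled CPM was 44.9 and 50.8 with vehicle and 39.6 and 36.9 after gemcitabine, a log2 fold change of -0.33 (SE 0.088, edgeR adjusted p = 0.00880). The fall rested on vehicle library 2, without which it was -0.23 with an adjusted p of 0.209. The FPKM of REV3L was 7.78 and 14.3 with vehicle and 3.62 and 6.74 after gemcitabine, a ratio of means of 0.469, while the ratio on the count scale was 0.798. FPKM and fragment counts are related by the length of the isoforms to which Cuffdiff assigned the reads. For REV3L the length implied by both scales varied from 3.44 to 11.5 kb between libraries, 3.35 times, while in the other 9 genes it varied by 1.04 to 1.45 times.

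MAD2L2 (chromosome 1, 11718975 to 11751868), which besides its part in polymerase zeta belongs to the shieldin complex that limits the resection of broken ends, was at 70.9 and 67.9 scaled CPM with vehicle. After gemcitabine it was at 80.3 and 73.9, above both vehicle libraries. The log2 fold change of 0.15 (95% interval -0.0039 to 0.31) had an adjusted p of 0.114 by edgeR. Without gemcitabine library 2 it was 0.21, with an adjusted p of 0.0121 that takes its spread from the vehicle pair alone. The ratio of MAD2L2 to REV3L in scaled CPM was 1.58 and 1.34 with vehicle and 2.03 and 2.00 after gemcitabine, which restates their changes.

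All 3 ubiquitin ligases had a log2 fold change below 0 on the count scale, and SHPRH alone passed the test. SHPRH (chromosome 6, 146185381 to 146285559) was at 36.8 and 43.3 scaled CPM with vehicle and at 30.3 and 31.2 after gemcitabine, a log2 fold change of -0.38 (SE 0.096, edgeR adjusted p = 0.00571). Without vehicle library 2, the higher of the pair, it was -0.25 with an adjusted p of 0.173. Its FPKM overlapped between conditions, at 4.34 and 4.79 with vehicle and 4.61 and 3.94 after gemcitabine.

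RAD18 (chromosome 3, 8817088 to 9005457), the ligase that starts the pathway, was at 63.4 and 66.4 scaled CPM with vehicle and at 57.7 and 61.9 after gemcitabine. The values did not overlap, and the log2 fold change of -0.12 (95% interval -0.28 to 0.04) had an adjusted p of 0.231 by edgeR. On the FPKM scale the order was the opposite, with 17.0 and 16.3 with vehicle and 18.5 and 20.4 after gemcitabine, so that no direction is given for RAD18. HLTF (chromosome 3, 148747914 to 148804341) was at 190 and 194 scaled CPM with vehicle and at 151 and 192 after gemcitabine. HLTF had a log2 fold change of -0.16 (edgeR adjusted p = 0.170), which rested on gemcitabine library 1. It was -0.34 without gemcitabine library 2 and -0.00037 without gemcitabine library 1. Exons of HLTF overlap for 27.4% of their length with GYG1 on the opposite strand, and the counting is not stated to use strand.

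PRIMPOL (chromosome 4, 185570821 to 185616117) rose. It was at 12.6 and 12.9 scaled CPM with vehicle and at 17.1 and 15.4 after gemcitabine, without overlap. The log2 fold change was 0.35 (SE 0.12, edgeR adjusted p = 0.0336). This call was weak, since the adjusted p was 0.197 without vehicle library 1, 0.161 without vehicle library 2, 0.117 without gemcitabine library 1 and 0.194 with DESeq2. In FPKM it was at 7.36 and 9.33 with vehicle and at 15.04 and 11.1 after gemcitabine. Exons of PRIMPOL overlap with CENPU on the opposite strand for 18.6% of their length, those of MAD2L2 for 17.2% and those of REV1 for 10.97% with genes on the opposite strand.

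Over the 10 genes, the scaled CPM of the conditions did not overlap for 8, with gemcitabine above for 4 and below for 4. Of all genes tested, 69.7% did not overlap, 35.0% with gemcitabine above and 34.7% with it below. The direction on the FPKM scale was that on the count scale for 7 of the 10, and differed for POLK, RAD18 and HLTF, none of which passed the test. Scaling moved these values too. With library totals in place of TMM the median of all genes tested was 0.12 instead of 0.0068, MAD2L2 and POLI passed at 0.26 and 0.36, and REV3L, at -0.22, had an adjusted p of 0.0766.

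The 10 genes differ in the length of DNA they occupy. Spearman's rho between span and log2 fold change was -0.70 over the 10 genes and -0.065 over 14512 annotated genes tested. Both are descriptions across genes that share the same 4 libraries. Over all genes tested the median log2 fold change was 0.05 for spans up to 10 kb (2683 genes) and -0.04 for 80 to 160 kb (2140 genes). Above 160 kb (1797 genes) it was -0.0094, so that it did not fall steadily with span in this set. Among genes with a mean of at least 1 FPKM it was 0.034, -0.069 and -0.063 in the same bins. A part of span in the changes was not tested. RAD18 and REV3L lie in the last of these bins.

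POLH and POLK share their start region with a neighbour that is read in the other direction, which was looked for by position only. The start of POLH is 147 bases from that of XPO5, which encodes the exporter of microRNA precursors. XPO5 was at 137 and 143 scaled CPM with vehicle and at 92.5 and 98.3 after gemcitabine, a log2 fold change of -0.55 (SE 0.068, edgeR adjusted p = 2.05e-05). The pair therefore moved in opposite directions, each past the test, from starts within the same DNaseI peak. POLK starts 262 bases from CERT1, a ceramide transporter, which was at 31.3 and 33.8 with vehicle and 36.4 and 39.1 after gemcitabine (log2 fold change 0.21, adjusted p = 0.0724 by edgeR).

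DNaseI-seq marks chromatin that is open to the nuclease DNaseI. With a peak counted when it overlapped 1000 bases to either side of an annotated start, POLH, POLI, RAD18 and HLTF had one in the vehicle library, where 21.2% of 18825 annotated genes had one (32.4% of those with a mean of at least 1 FPKM). In the gemcitabine library POLH, POLI, REV1, REV3L, MAD2L2 and HLTF had one, beside 24.5% of annotated genes (37.4% of those with at least 1 FPKM). POLK, SHPRH and PRIMPOL had none in either. With 1 library a condition no test is possible.

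The peak scores are -10 times the log10 of the p-value, with medians of 71.1 over all vehicle peaks and 73.8 over all gemcitabine peaks. At POLH the peak from 43543382 to 43544238 scored 52.0 with vehicle and that from 43543523 to 43544597 scored 83.9 after gemcitabine. The peaks found after gemcitabine alone scored 97.2 at REV1, 79.0 at MAD2L2 and 54.8 at REV3L, and that found with vehicle alone scored 74.2 at RAD18. The lowest score in either list is 50.0, and no gene of the 10 had a peak scoring 100 or more under either condition, so that a peak missing from a list may lie just under the limit. Of the 3 genes with a peak after gemcitabine alone, REV1 and REV3L had less RNA in that condition, and MAD2L2 was higher in both libraries without passing the test. POLH, POLI and HLTF had a peak under both conditions, and the score was higher after gemcitabine at each. It was 52.81 and 61.1 at POLI and 74.75 and 88.5 at HLTF, with vehicle and after gemcitabine. The RNA of POLH was higher too, and that of POLI was higher in both libraries without passing the test. HLTF overlapped between conditions in scaled CPM, and XPO5, which starts within the POLH peak, had less RNA. A link between score and RNA was not tested.

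**Figure D4:**
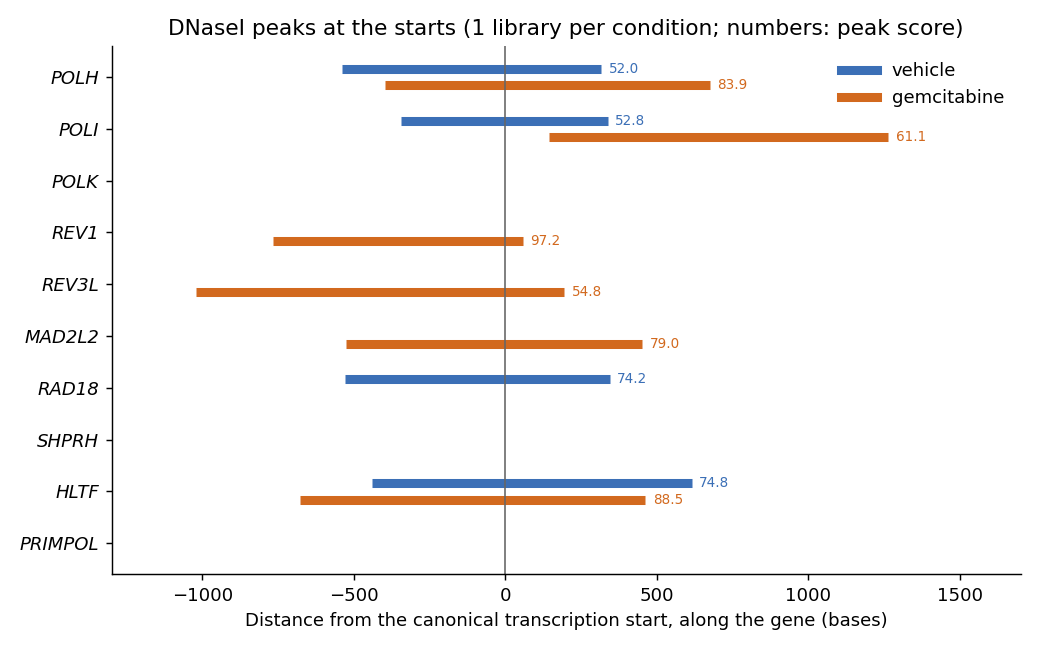
DNaseI peaks at the starts of the 10 genes, as distance in bases from the canonical transcription start along the gene, with vehicle (blue) and gemcitabine (orange), 1 library each. Numbers are peak scores, from 52.0 to 97.2, and POLK, SHPRH and PRIMPOL have no bar.

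Genes that work with these 10 were listed by role, 46 in all, of which 45 were matched and 44 tested. POLDIP2 was not matched and RADX had too few fragments. Of the 44, 10 rose and 10 fell at an adjusted p under 0.05, again near the background of 38.5%, and their median change was 0.0080 on the log2 scale. The split was 13 up and 5 down with library totals and 3 up and 7 down with DESeq2, and 5 or 6 passed in all without vehicle library 1 or 2. In the group of PCNA ubiquitin enzymes 1 of 9 rose and 5 fell, with a median of -0.20. Of these 5, USP7 and USP10 alone had FPKM that did not overlap between conditions. Of the 8 genes of the clamp and its loading 1 rose and 2 fell (median -0.037). Of 14 polymerase partners and other repair polymerases 4 rose and 2 fell (median 0.035). Of 13 genes of fork reversal and protection 4 rose and 1 fell (median 0.048). Of all genes tested 18.5% rose and 20.0% fell.

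**Figure D5:**
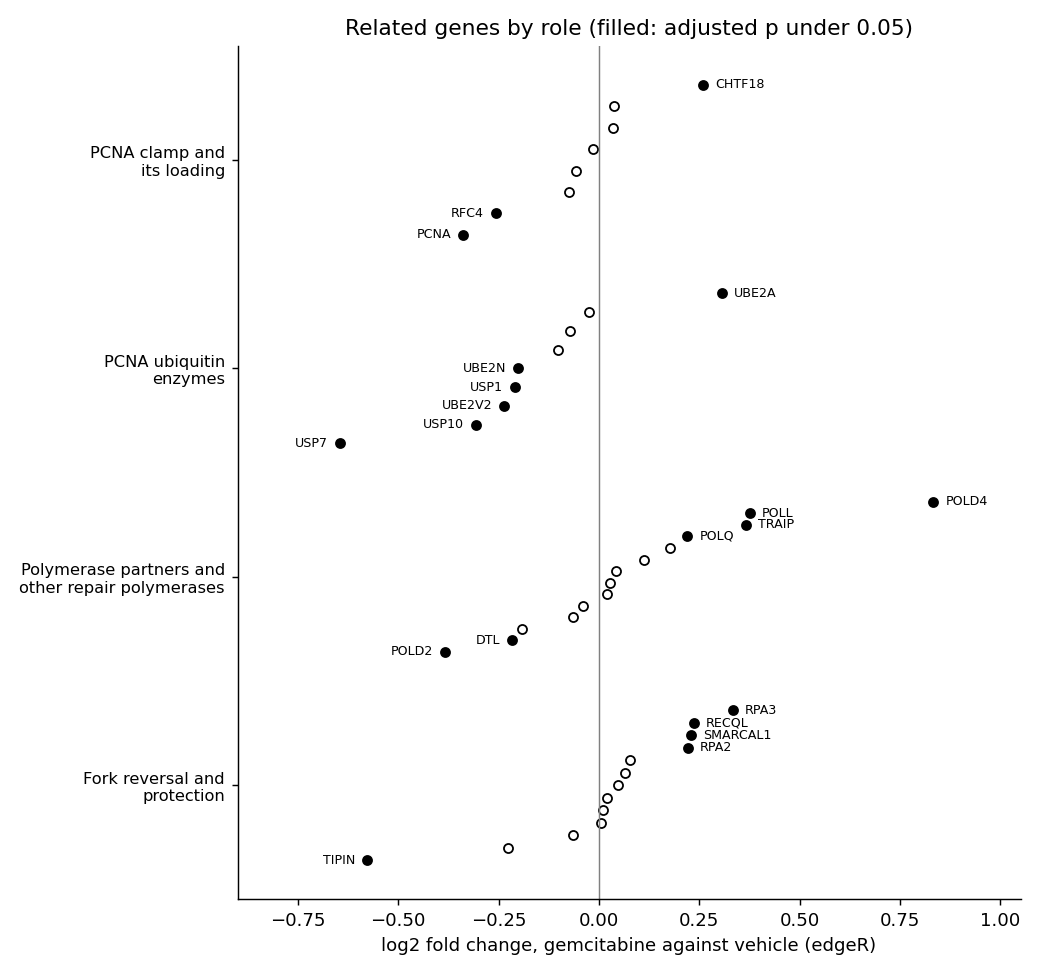
Log2 fold change, gemcitabine against vehicle, of the 44 related genes tested, by role. Filled, named points had an adjusted p under 0.05, with POLD4 at 0.83 the highest and USP7 at -0.64 the lowest.

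PCNA itself fell, from 183 and 173 scaled CPM with vehicle to 141 and 140 after gemcitabine (log2 fold change -0.34, SE 0.066, edgeR adjusted p = 0.00102). The conjugating enzymes that serve RAD18 differed, since UBE2A rose from 123 and 124 to 152 and 154 (log2 fold change 0.31, adjusted p = 0.00176) and UBE2B had a log2 fold change of -0.02 (edgeR adjusted p = 0.824). UBE2N and UBE2V2 form the enzyme that builds chains with SHPRH and HLTF. By counts both fell, by 0.20 and 0.24 on the log2 scale (adjusted p = 0.0297 and 0.0133 by edgeR). USP1, which removes ubiquitin from PCNA, fell by 0.21 by counts (edgeR adjusted p = 0.0332). The FPKM of UBE2N, UBE2V2 and USP1 overlapped between conditions, with ratios of means of 0.985, 0.983 and 0.937. The deubiquitinases USP7 and USP10 fell by 0.64 and 0.31, and USP7, from 179 and 184 to 115 and 118 scaled CPM, was the only gene of its group to meet the study's criteria.

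Polymerase zeta shares POLD2 and POLD3 with polymerase delta, the main polymerase of the lagging strand. POLD2 fell, from 251 and 234 to 187 and 185 scaled CPM (log2 fold change -0.38, adjusted p = 0.000422 by edgeR), while POLD3 had a log2 fold change of 0.03 (edgeR adjusted p = 0.788). POLD4, the smallest subunit of polymerase delta, rose from 30.4 and 30.01 to 54.6 and 53.0 scaled CPM, a log2 fold change of 0.83 (SE 0.081, edgeR adjusted p = 2.54e-06), and was called by the study's criteria. Elsewhere, CHTF18, a subunit of an alternative clamp loader, rose by 0.26 and RPA3, a subunit of the protein that coats single-stranded DNA, rose by 0.33. TIPIN, which steadies the fork together with TIMELESS, fell by 0.58 on the log2 scale (edgeR adjusted p = 0.000622).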

How the data were processed

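RNA-seq reads were aligned by the authors to hg19 with TopHat2 2.0.8. The authors deposited estimated counts of fragments per protein-coding Gencode gene from Cuffdiff 2.0.2, of which 86.8% are whole numbers. They also deposited FPKM, and signal columns of scaled fragments, which were not used here. DNaseI-seq peaks were called by the authors with MACS, separately for each condition, and deposited with a score. Libraries are called 1 and 2 after the index in the table, and which labelled replicate each one is was not given.

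Estimated counts were rounded, and 14854 genes with 10 or more fragments in total were tested in edgeR 4.0.16 (quasi-likelihood, TMM, Benjamini-Hochberg adjustment, no covariate) under R 4.3.3. The fits were first checked on simulated data with equal noise in both conditions, unlike the replicates here. The common biological coefficient of variation was 0.0522. Gene names, starts and spans came from a Gencode annotation lifted to GRCh37, the sequence of hg19. DESeq2 1.42.0, limma 3.58.1, other scalings and filters, other peak rules and leaving out each library were tried as alternatives. The genes and lists were chosen with earlier results of these data known. Named are all 10 genes, their direct partners, related genes meeting the study's criteria and, per role, the 2 largest changes that passed. Neighbours were chosen by position, within 1000 bases, and not all are reported here.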

Additional observations from a re-analysis of the deposited data

How the results depend on the processing

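Fold changes here are log2 and counts are of genes. With 2 libraries a condition, leaving out a library gave 1 to 7 of the 10 genes passing (5 with all libraries), 0 to 1 meeting the study's criteria, 2609 to 6658 of all genes passing and 5 to 21 of the related genes. The lowest counts came without vehicle library 2 for the 10 genes (1) and for all genes (2609), and without vehicle library 1 for the related genes (5). The fold changes ranged from 0.57 to 0.70 for POLH, -0.41 to -0.34 for REV1, -0.40 to -0.23 for REV3L, -0.49 to -0.25 for SHPRH, 0.27 to 0.43 for PRIMPOL, 0.092 to 0.21 for MAD2L2, -0.34 to -0.00037 for HLTF and -0.17 to 0.14 for POLK, which reversed without gemcitabine library 2 (0.14). With DESeq2, 10 related genes passed and PRIMPOL, at 0.35, did not. Without the filter 13 related genes passed and PRIMPOL (0.36) had an adjusted p of 0.0504. With library totals POLI (0.36) and MAD2L2 (0.26) passed, REV3L (-0.22) did not, and POLK reversed (0.099).

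With limma on log2(FPKM + 1), 0 of the 10 genes passed and 0 met the study's criteria, with 532 and 404 of all genes and 1 related gene. POLH was then at 0.71, REV1 at -0.40, REV3L at -0.95, SHPRH at -0.079 and PRIMPOL at 0.585, none past the test, and POLK (0.0080), RAD18 (0.21) and HLTF (0.019) reversed. On log2(FPKM + 0.1) the counts were 0, 0, 870, 606 and 2, with POLH at 0.75, REV1 at -0.42, REV3L at -1.08, SHPRH at -0.096 and PRIMPOL at 0.64 not passing, and POLK (0.0081), RAD18 (0.22) and HLTF (0.020) reversed. Keeping genes with a mean of at least 0.1 FPKM gave 1 of the 10 (POLH), 1943 of all and 7 related genes, with the fold changes of the first setting. The cause of these differences was not tested. At a peak score of 100 or more, 0 of the 10 genes had a peak under either condition. Same-indexed libraries did not deviate together (correlation -0.039 over 11056 genes). With 2 libraries a condition this cannot exclude that libraries were paired. With the index as a replicate block 5 of the 10 genes and 5873 of all genes passed.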
